A study of Mus musculus with 24 samples.

Results

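The genes described here are 37 genes of mitosis and of the G2/M phase that precedes it, read in a table of exon read counts that lists 24506 genes. They were chosen by symbol, all 37 were found, and all 37 passed the filter on low counts that left 14550 genes for testing (the lowest count of a member in any library was 521). The RNA came from mouse fetal liver cells of C57BL6/J background, labelled ProB, that were grown with interleukin-7, FLT3 ligand and KIT ligand over OP9 stromal cells and carried the retroviral vector pMiG. There were 7 groups of 2 libraries: WT, Ebf1-KO and Pax5-KO cells with the empty vector, Ebf1-KO cells with pMiG encoding Ebf1 or Pax5, and Pax5-KO cells with pMiG encoding Ebf1 or Pax5. A group named without a factor below carried the empty vector. The labels do not give the age of the fetuses, their number or the structure of the 2 deleted alleles, so the p-values reflect no more than how far libraries of a group differ, which may be technical. The series, which holds 24 samples, is about control of the Myc gene and pro-B cell expansion by EBF1 and PAX5, transcription factors of the B lineage.

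Dividing cells raise the transcripts of mitosis late in the cycle. Cyclins A and B with the kinase CDK1 start mitosis, condensins and topoisomerase II compact and untangle chromosomes, kinetochores tie centromeres to the spindle, a checkpoint holds back the anaphase-promoting complex until all are tied, and motors and scaffolds then part the chromosomes and the cell. Pro-B cells expand by rapid division under interleukin-7. Many promoters of this programme carry a cell cycle genes homology region, TTTGAA or close to it, a few helical turns from CCAAT boxes, which are bound by DREAM or MuvB complexes and by NF-Y; FOXM1 and B-Myb act through the same complexes.

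The promoters of 4 members that differed between groups are shown because the members share these motifs. Each is the 150 bases before the start of the transcript in RefSeq on GRCm38.p6, the mm10 assembly, 5′ to 3′ on the strand of the gene, with every TTTGAA and CCAAT on either strand (TTCAAA and ATTGG where reversed) in capitals. They lie at chr7:135716380-135716529 on the minus strand for Mki67, chr19:37376232-37376381 on the plus strand for Kif11, chr1:189688087-189688236 on the minus strand for Cenpf and chr5:30666736-30666885 on the plus strand for Cenpa.
Mki67: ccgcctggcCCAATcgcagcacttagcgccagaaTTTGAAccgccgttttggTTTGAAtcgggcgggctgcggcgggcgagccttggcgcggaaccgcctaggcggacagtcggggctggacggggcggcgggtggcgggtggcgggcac
Kif11: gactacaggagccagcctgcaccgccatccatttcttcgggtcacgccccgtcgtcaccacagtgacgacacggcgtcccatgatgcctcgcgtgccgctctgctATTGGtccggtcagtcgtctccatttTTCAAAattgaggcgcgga
Cenpf: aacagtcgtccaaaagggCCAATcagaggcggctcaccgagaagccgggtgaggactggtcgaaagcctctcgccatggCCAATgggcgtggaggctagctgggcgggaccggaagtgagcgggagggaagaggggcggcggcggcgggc
Cenpa: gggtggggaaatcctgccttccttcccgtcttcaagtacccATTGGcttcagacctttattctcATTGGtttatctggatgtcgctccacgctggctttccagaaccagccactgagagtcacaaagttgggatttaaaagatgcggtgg
Mki67 and Kif11 have both motifs in the window, while in Cenpf and Cenpa the TTTGAA begins 2 and 16 bases after the first transcribed base and only the CCAAT boxes lie in the printed stretch. RefSeq promoters of 300 bases, 250 before and 50 from the start onwards, were found for 32 of the 37 members, 34 promoters in all. TTTGAA was in 26 of the 34 (76.5%), against 12.3% of 13830 promoters of tested genes and 17.9% of 32851 promoters in the whole table. CCAAT was in 25 (73.5%, against 37.6% of promoters of tested genes), and both were in 22 (64.7%, against 4.89%). In a shorter window of 100 bases before to 50 from the start, both motifs were in 19 (55.9%, against 1.44%). The E-box CACGTG, the form that MYC with MAX binds best, was in 2 (5.88%, Anln and Ttk, against 9.43%). The EBF1 motif, read as TCCC and GGGA with any 2 bases between, was in 0 of 34 (1.01% of promoters of tested genes). Motifs were searched on both strands, none of the 4 contains another, and a match is a description of letters and not of binding.

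The 14 libraries held 16.1 to 42.1 M (mega) exon counts. Levels are CPM, that is counts per 1 M counts of a library whose size was scaled by TMM, and tests are edgeR's quasi-likelihood test in 1 fit over the 7 groups, with Benjamini-Hochberg adjustment over all 14550 genes and a call at an adjusted p below 0.05. Of the targeted genes, Ebf1 stood at 966 and 1102 CPM for WT, 244 and 282 for Ebf1-KO, and 315 and 241 for Pax5-KO. Pax5 stood at 412 and 333 CPM for WT, 2.24 and 2.49 for Ebf1-KO, and 20.1 and 12.3 for Pax5-KO. Both genes were thus below WT in both knockouts, and Ebf1 kept part of its level in its own, so these levels set the knockouts apart from WT but do not check which knockout a library is. The gene a vector encoded stood above its empty-vector level in all 4 vector groups: Ebf1 was at 857 and 893 CPM in Ebf1-KO + Ebf1 and 1644 and 1483 in Pax5-KO + Ebf1, and Pax5 at 429 and 399 CPM in Ebf1-KO + Pax5 and 746 and 440 in Pax5-KO + Pax5. The label ProB was borne out in WT, where 13 early B lineage markers summed to 9892 to 10751 CPM. In Ebf1-KO they summed to 363 to 392 CPM with Vpreb2 and Vpreb3 at 0, and in Pax5-KO to 1889 to 2024. Markers of other lineages moved with genotype: 11 myeloid markers summed to 26.8 to 28.7 CPM in WT (Cd14 and Ctsg at 0), 708 to 711 in Ebf1-KO and 460 to 586 in Pax5-KO, and 8 NK and innate lymphoid markers to 0.725 to 1.43 in WT (Ncr1, Gzmb and Tbx21 at 0), 199 to 266 in Ebf1-KO and 373 to 422 in Pax5-KO. The 8 T lineage markers summed to 8.58 to 10.5, 249 to 287 and 317 to 357 CPM in the same order. Of 9 OP9 stroma markers, which summed to 0.915 to 2.12, 63.1 to 72.1 and 8.63 to 13.7 CPM, Col3a1, Dcn and Lum were at 0 in all 3 of these groups. The highest of the 9 by mean was Sparc in WT (0.958 CPM) and Pdgfrb in Ebf1-KO (60.7) and Pax5-KO (7.76). The stroma sums were 21.5 to 22.3 CPM in Ebf1-KO + Ebf1 and 76.0 to 86.7 in Ebf1-KO + Pax5. They were 1.44 to 7.18 CPM in Pax5-KO + Ebf1 and 4.25 to 6.29 in Pax5-KO + Pax5. The vectors moved the sums of the other lists as well, and those values stand with each vector below. In bulk RNA, fewer cells in mitosis and less of a transcript per cell cannot be told apart, and the part of these markers in the results below was not tested.

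Loss of Ebf1 went with lower mitosis transcripts. In Ebf1-KO against WT, 9 of the 37 members fell and 0 rose, where 6.65% of all tested genes were called lower, 8.02% higher and 14.7% in either direction. The median log2 fold change of the 37 was -0.50, against 0.03 over all tested genes, and 34 of the 37 were below 0, against 47.8% of tested genes. In 27 members both Ebf1-KO libraries lay below both WT libraries (27.2% of tested genes) and in 1 above (32.3%). Mki67 fell furthest, and the others called were Kif4, Cenpf, Kif11, Cenpa, Aurkb, Ncaph, Incenp and Cenpe.

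Pax5-KO cells also had lower mitosis transcripts than WT. In Pax5-KO against WT, 10 of the 37 fell and 0 rose, where 5.00% of tested genes were called lower, 8.65% higher and 13.6% in either direction. The median was -0.47 (0.04 over all tested genes), 33 of 37 were below 0 (47.4%), and in 26 members the Pax5-KO libraries lay below both WT libraries (26.5%). Called were Mki67, Kif4, Cenpf, Kif20b, Kif11, Ndc80, Cenpe, Cenpa, Aurkb and Ttk. Sex-linked RNA moved with this comparison: the 6 libraries of Pax5-KO cells, with any vector, had Xist, the RNA of the inactive X, at 2453 to 10430 CPM and the Y-linked Kdm5d at 0 to 0.0877, while the 8 libraries of WT and Ebf1-KO cells had Xist at 0.302 to 29.6 and Kdm5d at 92.0 to 131. The Pax5 deletion and the sex of the cells therefore cannot be told apart for any member in Pax5-KO against WT, or in a difference between the 2 knockouts. Pax5-KO + Pax5 against WT carries the same difference in sex-linked RNA. Both knockouts were compared with the same 2 WT libraries, so their results are not independent of each other. DESeq2 called 14 members in Ebf1-KO, beside 21.1% of the genes it gave an adjusted p, and 16 in Pax5-KO, beside 19.8%.

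The members called depended on the fit, and calls in the role classes below are those of edgeR with all libraries unless another fit is named. In Ebf1-KO, DESeq2 added Ccna2, Nuf2, Ttk, Prc1 and Top2a, and the replicate block added Ccna2, Bub1b, Nusap1 and Top2a. In that comparison, no filter on low counts added Ccna2, Bub1b, Nusap1 and Top2a and lost Incenp, and the length offset with the replicate block added Ccna2, Ccnb2, Cdca8, Bub1b, Nusap1 and Prc1 and lost Cenpe. In Pax5-KO, DESeq2 added Nuf2, Bub1, Bub1b, Ect2, Top2a and Ncapg, and the replicate block added Bub1, Bub1b, Ect2 and Top2a. There, no filter added Bub1b, Top2a and Ncapg and lost Ttk, and the length offset with the block added Nuf2, Bub1b and Ncaph and lost Cenpe.

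**Figure D1:**
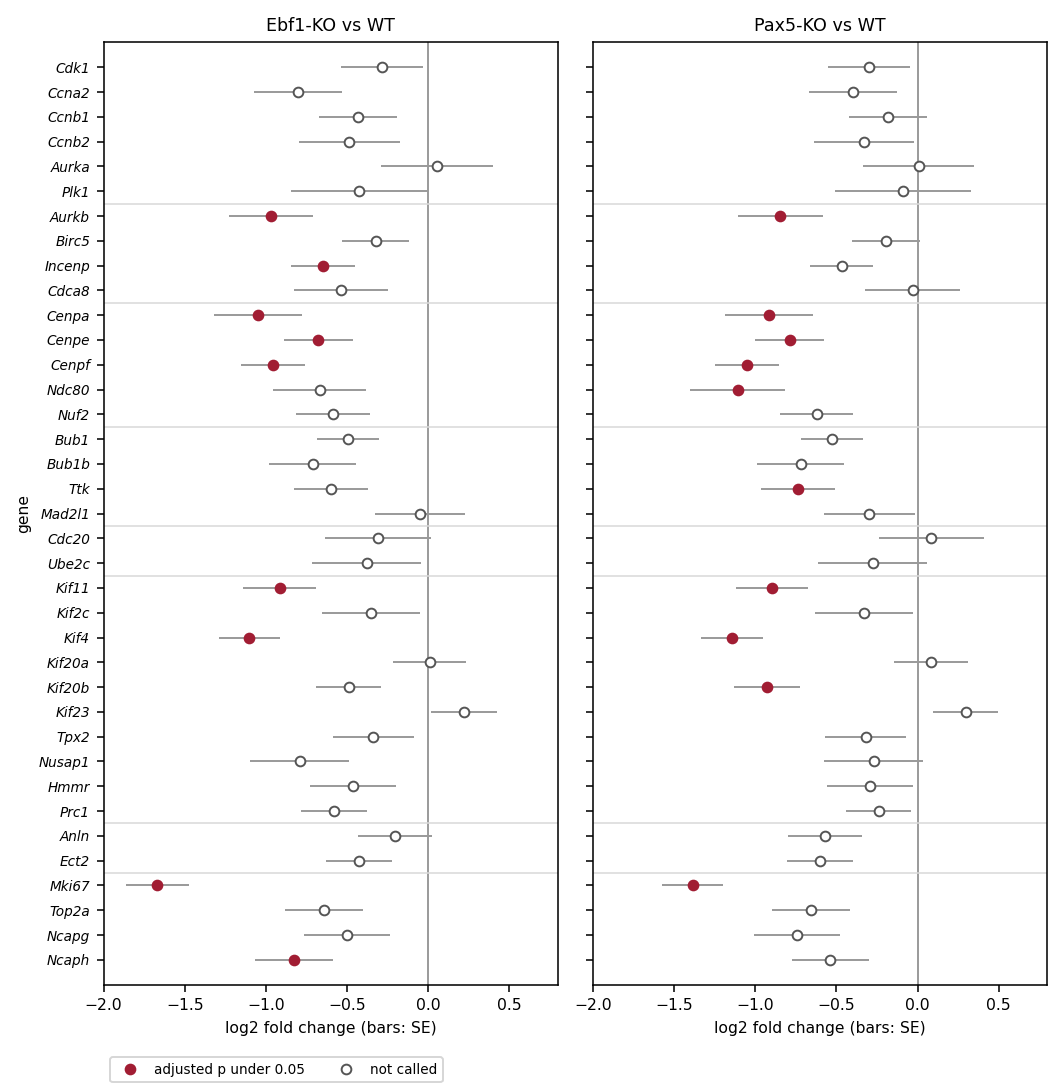
Log2 fold change of each of the 37 members (rows, grouped by role) in Ebf1-KO against WT (left) and Pax5-KO against WT (right), with bars of 1 SE and filled points for an adjusted p under 0.05. The 9 and 10 filled points all lie left of 0, Mki67 lies furthest left in both, and the cyclins and mitotic kinases of the top block are all open in this edgeR fit.

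The 4 members that shape chromosomes included the most abundant one. Mki67 (NM_001081117, chromosome 7, 135689788 to 135716379, minus strand) encodes Ki-67, a coat of mitotic chromosomes used as a marker of proliferation, and per kilobase of exon it ranked 1st of the 37 in WT, at 420 CPM per kb. Its level was 4432 and 4022 CPM for WT, 1235 and 1424 for Ebf1-KO and 1761 and 1470 for Pax5-KO, and all 4 knockout libraries lay far below both WT libraries. The fall was 3.18-fold in Ebf1-KO (a log2 change of -1.67 ± 0.19, here and below with 1 SE, adjusted p = 2.1e-05) and 2.62-fold in Pax5-KO (-1.39 ± 0.19, adjusted p = 0.000138). Mki67 made up 33.1 ± 0.678% (SD, n = 2) of the summed CPM of the 37 members in WT, 19.1 ± 0.505% in Ebf1-KO and 21.5 ± 2.87% in Pax5-KO. The other 36 summed to 8565 ± 850 CPM in WT, 5655 ± 752 in Ebf1-KO and 5887 ± 249 in Pax5-KO, so the lower level was not in Mki67 alone. Ncaph, a condensin I subunit (chromosome 2, 127103810 to 127133954), had 187 and 164 CPM for WT, 80.1 and 118 for Ebf1-KO and 113 and 129 for Pax5-KO. It fell in Ebf1-KO (-0.83 ± 0.24, adjusted p = 0.0311), and in Pax5-KO it had -0.54 with an adjusted p of 0.166. Top2a, topoisomerase IIα and second per kilobase at 312 CPM per kb, had -0.64 (adjusted p = 0.0944) and -0.66 (adjusted p = 0.0889) in the 2 knockouts, which edgeR did not call; DESeq2 and the replicate block called it in both.

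Of the centromere and kinetochore genes, 3 of 5 fell in Ebf1-KO and 4 of 5 in Pax5-KO. Cenpa, the histone H3 variant that marks centromeres (chromosome 5, 30666886 to 30674837), had 149 and 181 CPM for WT, 86.5 and 73.3 for Ebf1-KO and 81.6 and 93.5 for Pax5-KO. Its change was -1.05 ± 0.27 (adjusted p = 0.0156) and -0.92 ± 0.27 (adjusted p = 0.0351). Cenpf, a large protein of the outer kinetochore (chromosome 1, 189640614 to 189688086), had 371 and 384 CPM for WT, 172 and 217 for Ebf1-KO and 198 and 166 for Pax5-KO (-0.96 ± 0.20, adjusted p = 0.00377, and -1.05 ± 0.20, adjusted p = 0.00218). The WT libraries of both genes lay clear of all 4 knockout libraries. Cenpe, a kinesin that carries chromosomes to the spindle equator (chromosome 3, 135212563 to 135273540), had 405 and 389 CPM for WT, 248 and 249 for Ebf1-KO and 274 and 186 for Pax5-KO (-0.68 ± 0.21, adjusted p = 0.0457, and -0.79 ± 0.21, adjusted p = 0.0229). Ndc80 and Nuf2 form one end of the complex that grips microtubules. Ndc80 (chromosome 17, 71496100 to 71526857) had 128 and 102 CPM for WT, 72.6 and 72.0 for Ebf1-KO and 52.1 and 54.5 for Pax5-KO, and was called in Pax5-KO (-1.11 ± 0.29, adjusted p = 0.0198) but not in Ebf1-KO (-0.67, adjusted p = 0.152); the difference between the knockouts was not tested. Nuf2 had -0.58 and -0.62 and was called in neither by edgeR and in both by DESeq2.

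Among the 4 genes of the chromosomal passenger complex, which corrects faulty attachments, the kinase and its scaffold were the members edgeR called. Aurkb, the kinase (chromosome 11, 69045637 to 69051664), had 224 and 263 CPM for WT, 114 and 134 for Ebf1-KO and 148 and 123 for Pax5-KO. It fell in both (-0.97 ± 0.26, adjusted p = 0.0199, and -0.85 ± 0.26, adjusted p = 0.0435). Incenp, the scaffold (chromosome 19, 9872297 to 9899533), had 270 and 237 CPM for WT, 142 and 182 for Ebf1-KO and 166 and 201 for Pax5-KO, and fell in Ebf1-KO (-0.65 ± 0.20, adjusted p = 0.0370). Birc5, survivin, and Cdca8, borealin, had -0.32 and -0.54 for Ebf1-KO and -0.20 and -0.03 for Pax5-KO and were not called by edgeR. Of the 4 spindle checkpoint genes, Ttk, the kinase MPS1 (chromosome 9, 83834689 to 83872390), was the 1 called by edgeR, in Pax5-KO, where DESeq2 and the replicate block also called Bub1 and Bub1b: 85.8 and 94.2 CPM for WT, 57.5 and 61.5 for Ebf1-KO and 60.6 and 47.5 for Pax5-KO (-0.74 ± 0.23, adjusted p = 0.0458). Bub1, Bub1b and Mad2l1, the other checkpoint members, had -0.49, -0.71 and -0.05 for Ebf1-KO and -0.53, -0.72 and -0.30 for Pax5-KO.

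Spindle motors and microtubule binders were split, with 2 of 10 lower in Ebf1-KO and 3 of 10 in Pax5-KO. Kif11, the kinesin that pushes spindle poles apart (chromosome 19, 37376403 to 37421859), had 766 and 691 CPM for WT, 347 and 427 for Ebf1-KO and 369 and 413 for Pax5-KO (-0.91 ± 0.22, adjusted p = 0.0114, and -0.90 ± 0.22, adjusted p = 0.0146). Kif4, a chromosome-bound kinesin, had 208 and 258 CPM for WT, 107 and 110 for Ebf1-KO and 115 and 95.9 for Pax5-KO (-1.10 ± 0.19, adjusted p = 0.00085, and -1.14 ± 0.19, adjusted p = 0.000734). The gene lies on the X chromosome (100626065 to 100727271). Kif4 was low in both knockouts, of which Pax5-KO had high and Ebf1-KO low Xist. Kif20b, a kinesin of late mitosis (chromosome 19, 34922358 to 34975750, with Mir1950 inside it), had 216 and 196 CPM for WT, 161 and 132 for Ebf1-KO and 127 and 89.6 for Pax5-KO, and fell in Pax5-KO (-0.93 ± 0.20, adjusted p = 0.00616). Of the members above 0 in both knockouts, Kif23 and Kif20a were in this class and Aurka was an entry kinase. Cdc20, a partner of the anaphase-promoting complex, was above 0 in Pax5-KO only (0.08). Kif23, a motor of the central spindle, had 0.22 in Ebf1-KO (adjusted p = 0.551) and 0.30 in Pax5-KO (adjusted p = 0.386), and Kif20a, which overlaps Cdc23 so that reads could be shared, had 0.01 and 0.08.

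By edgeR, no cyclin, entry kinase, anaphase-promoting complex partner or cytokinesis gene was called in either knockout. Other fits called Ccna2 and Ccnb2 in Ebf1-KO and Ect2, a regulator of the contractile ring, in Pax5-KO. Ccnb2, the cyclin with the highest level per kilobase (134 CPM per kb in WT; chromosome 9, 70407689 to 70421554), had 186 and 224 CPM for WT, 130 and 163 for Ebf1-KO and 123 and 203 for Pax5-KO. Its libraries overlapped between WT and Pax5-KO but not between WT and Ebf1-KO (-0.48, adjusted p = 0.361, and -0.33, adjusted p = 0.545). Ube2c, the E2 enzyme of the anaphase-promoting complex (chromosome 2, 164769929 to 164772902), had 306 and 224 CPM for WT, 153 and 255 for Ebf1-KO and 216 and 222 for Pax5-KO, with overlap in the first comparison and none in the second (-0.38 and -0.28). Anln, the contractile ring protein anillin (chromosome 9, 22331214 to 22389206), had 199 and 175 CPM for WT, 177 and 147 for Ebf1-KO and 115 and 136 for Pax5-KO (-0.20 and -0.57). Ccna2, cyclin A2, which overlaps Exosc9, had the lowest value of the entry genes, -0.80 in Ebf1-KO with an adjusted p of 0.0654 by edgeR and 0.0282 by DESeq2, and Aurka the highest, 0.06. Which role classes held calls was not compared by a test.

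Fewer members were called against WT in each fit that left out 1 library. The share of all tested genes called in these fits is not given here. A fall in the members alone thus cannot be told from one over all genes. In Ebf1-KO, 5 members were called without WT replicate 1 (Cenpe, Incenp, Kif11 and Ncaph were lost), 4 without WT replicate 2 (Aurkb, Cenpa, Cenpe, Incenp and Ncaph lost), 2 without Ebf1-KO replicate 1 (Kif4 and Mki67 left) and 6 without Ebf1-KO replicate 2 (Aurkb, Cenpa and Cenpe lost). The largest adjusted p was 0.00100 for Mki67 and 0.0160 for Kif4. Without Ebf1-KO replicate 1 it was 0.159 for Aurkb, 0.0690 for Cenpf, 0.288 for Incenp, 0.134 for Kif11 and 0.283 for Ncaph, and without Ebf1-KO replicate 2 it was 0.137 for Cenpa and 0.181 for Cenpe. In Pax5-KO, 4 were called without WT replicate 1, 5 without WT replicate 2, 6 without Pax5-KO replicate 1 (5 of the 10 and Ncapg, not called by edgeR with all libraries) and 3 without Pax5-KO replicate 2. Mki67, Kif4 and Cenpf were called in all 4, with largest adjusted p of 0.00421, 0.0154 and 0.0379. Aurkb, Cenpa, Kif11 and Ttk were lost whichever of the 4 libraries was left out (adjusted p up to 0.280, 0.225, 0.103 and 0.317), Cenpe and Ndc80 without 3 of the 4 (0.247 and 0.121) and Kif20b without Pax5-KO replicate 2 (0.0904).

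Transcript length moved with genotype and bears on the longest members. Over all tested genes the median log2 fold change was -0.20 for 2414 genes with more than 5 kb of exon and 0.24 for 4833 genes under 2 kb in Ebf1-KO, and -0.20 and 0.23 for Pax5-KO. The 6 members over 5 kb had medians of -0.66 and -0.86 and the 7 under 2 kb -0.48 and -0.28. With a length offset, Cenpe (7765 bases of exon) was not called in Ebf1-KO (adjusted p = 0.196) or Pax5-KO (0.105), and Cenpf (11102 bases) was not called in Ebf1-KO (0.0697), while Mki67 (10059 bases) was called in both.

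**Figure D2:**
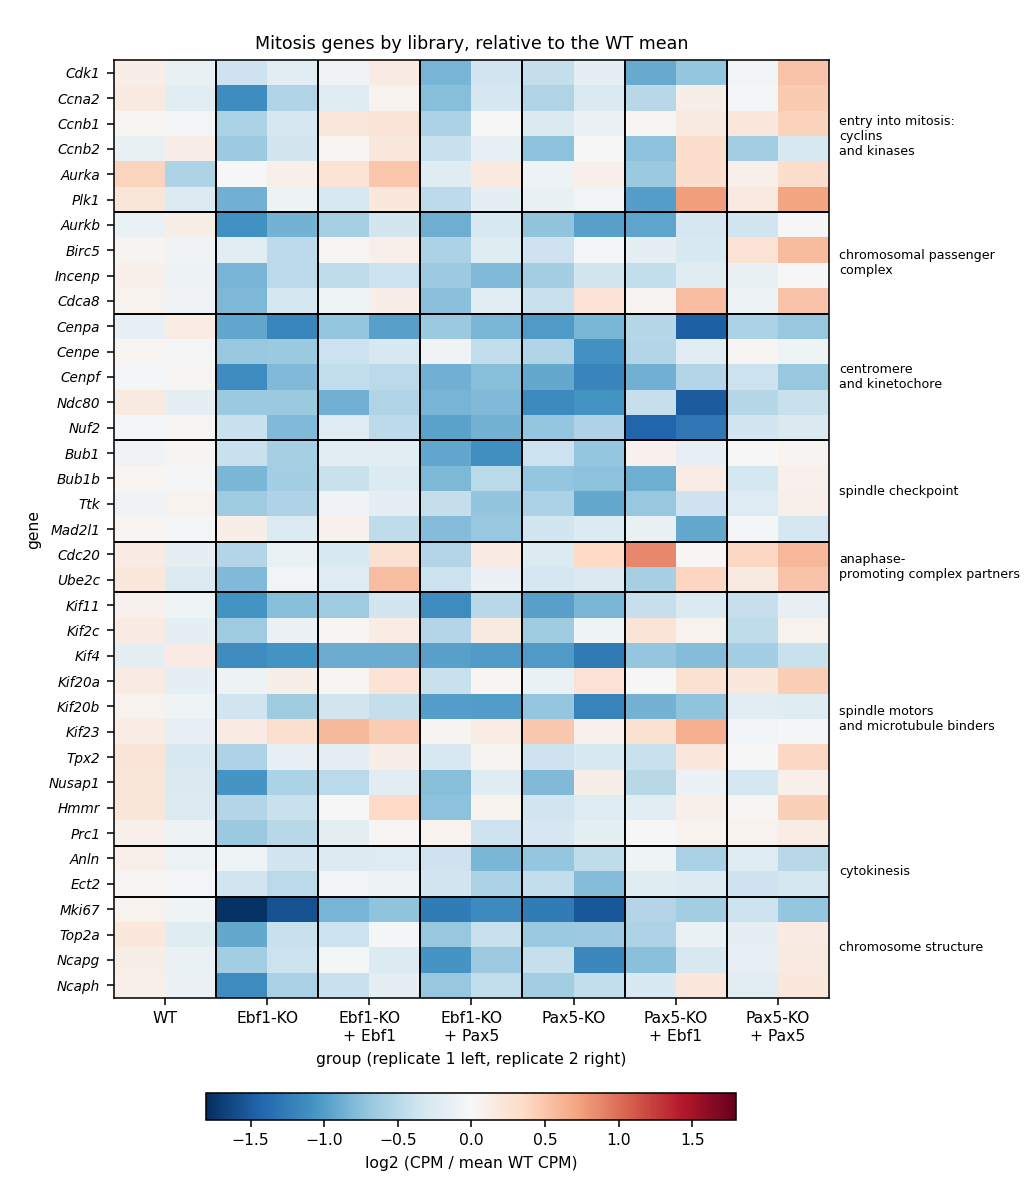
Log2 ratio of CPM in each of the 14 libraries (columns, replicates side by side) to the mean of WT for each member (rows, by role). Blue marks a lower level than in WT, and Mki67 is the darkest row in Ebf1-KO. The libraries of Pax5-KO with Pax5, which differ from WT in sex-linked RNA, are close to WT in most rows. The median member there was -0.04 from WT.

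Ebf1 returned to Ebf1-KO cells went with higher mitosis transcripts, with 1 call. Against Ebf1-KO, Mki67 rose in Ebf1-KO + Ebf1 and 0 members fell. The 1 call is 2.70% of the 37, near the background, where 2.21% of tested genes were called higher and 0.763% lower. The libraries of Mki67 stood at 2357 and 2556 CPM against 1235 and 1424, a rise of 1.85-fold (0.89 ± 0.19, adjusted p = 0.0161). The call was lost without any 1 of the 4 libraries: adjusted p = 0.258 and 0.0750 without Ebf1-KO replicates 1 and 2, and 0.112 and 0.176 without Ebf1-KO + Ebf1 replicates 1 and 2. The median over the 37 was 0.38 (0.00 over all tested genes), 34 were above 0 (49.1% of tested genes were below), and in 26 both vector libraries lay above both empty-vector libraries (24.0% of tested genes). Kif11 stood at 468 and 578 CPM, Aurkb at 161 and 194, Cenpf at 278 and 270 and Ncaph at 132 and 156, each above its Ebf1-KO libraries and below its WT libraries. Kif4 (126 and 125 CPM) also lay above its Ebf1-KO and below its WT libraries, while Cenpa (102 and 84.3) overlapped with Ebf1-KO and lay below WT. Cenpe had 303 and 325 CPM, Incenp 185 and 194, Ttk 86.4 and 80.3, Ndc80 63.0 and 78.7 and Kif20b 165 and 153. Of the genes edgeR called nowhere against an empty vector, Ccnb2 had 210 and 235 CPM, Ube2c 225 and 388 and Anln 158 and 159. Early B markers summed to 3869 to 4233 CPM in this group, myeloid markers to 374 to 379, T lineage markers to 209 to 212 and NK and innate lymphoid markers to 34.4 to 34.6.

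Against WT, Ebf1-KO + Ebf1 cells had 2 members lower, Kif4 (-0.89 ± 0.19, adjusted p = 0.00561) and Mki67 (-0.78 ± 0.19, adjusted p = 0.0136). They are 5.41% of the 37, near the background, where 4.22% of tested genes were called lower. The median was -0.14 (0.06 over all tested genes). Kif4 was not called without WT replicate 2 (adjusted p = 0.0809) or without Ebf1-KO + Ebf1 replicate 2 (0.0594). Mki67 was not called without WT replicate 1 (0.0867), without Ebf1-KO + Ebf1 replicate 1 (0.133) or 2 (0.0752), or with a length offset (0.0751). Cenpa had -0.83 with an adjusted p of 0.0661, and DESeq2 called it (adjusted p = 0.0286; it called 16.6% of its genes).

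Pax5 in Ebf1-KO cells gave no member a call by edgeR. In Ebf1-KO + Pax5 against Ebf1-KO, 0 of 37 were called by edgeR (4.08% of tested genes in either direction), 5 had an unadjusted p under 0.05 (16.7% of tested genes) and DESeq2 called 0 (9.29% of its genes). The median was 0.11, with 23 members above 0 and 14 below (50.5% of tested genes). Mki67 had 1765 and 1901 CPM, above both Ebf1-KO libraries (0.46, adjusted p = 0.215). Bub1, a checkpoint kinase at kinetochores, was the other way, with 119 and 104 CPM in Ebf1-KO and 82.0 and 73.1 with Pax5 (-0.52, adjusted p = 0.168). Kif20b had 104 and 102 CPM with Pax5 (-0.51, adjusted p = 0.201) and Mad2l1, which forms the checkpoint's inhibitor, had -0.68 (adjusted p = 0.221). The remaining named members were Kif11 at 333 and 515 CPM, Kif4 at 119 and 115, Cenpf at 206 and 222, Cenpa at 104 and 93.3, Cenpe at 379 and 292 and Ndc80 at 64.4 and 66.2. Aurkb stood at 132 and 201 CPM, Incenp at 162 and 147, Ttk at 66.7 and 55.2, Ncaph at 110 and 129, Ccnb2 at 155 and 186, Ube2c at 202 and 245 and Anln at 145 and 106. Of these, Kif4, Cenpa and Cenpe lay above and Ndc80 and Anln below their Ebf1-KO libraries, and the others overlapped with them. Early B markers summed to 1162 to 1260 CPM with Pax5, myeloid markers to 665 to 678, T lineage markers to 264 to 285 and NK and innate lymphoid markers to 369 to 423. With the length offset and the replicate block, Bub1 and Kif20b were called.

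Set directly against each other, the 2 vectors gave 1 call among the 37 members (2.70%), a smaller share than over all tested genes. In Ebf1-KO + Ebf1 against Ebf1-KO + Pax5, Bub1 (chromosome 2, 127800200 to 127831859) was higher with Ebf1, at 138 and 137 against 82.0 and 73.1 CPM (0.83 ± 0.19, adjusted p = 0.0123), and edgeR called no other member (4.74% of tested genes were called higher and 10.2% in either direction). Without 3 of the 4 libraries the call was lost: adjusted p = 0.0846 and 0.0775 without Ebf1-KO + Ebf1 replicates 1 and 2 and 0.0954 without Ebf1-KO + Pax5 replicate 2. The median was 0.35 (0.02 over all tested genes) and 35 of 37 were above 0, where 48.1% of tested genes were below. DESeq2 called 2 (16.9% of its genes), Bub1 and Kif20b.

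Pax5 returned to Pax5-KO cells gave the highest median of the 4 vector comparisons, again with 1 call. In Pax5-KO + Pax5 against Pax5-KO, Mki67 rose, at 3247 and 2609 against 1761 and 1470 CPM (0.86 ± 0.19, adjusted p = 0.0163). The 1 call is 2.70% of the 37, near the background, where 1.64% of tested genes were called higher. The median was 0.54 (0.01 over all tested genes), 35 of 37 were above 0 (48.4% of tested genes were below), 17 had an unadjusted p under 0.05 (14.7%), and in 28 the vector libraries lay above both others (23.5% of tested genes). DESeq2 called 4 (8.39% of its genes), Cenpe, Kif4, Kif20b and Mki67. The Mki67 call was lost without Pax5-KO replicate 1 (adjusted p = 0.0617) or 2 (0.195) and without Pax5-KO + Pax5 replicate 1 (0.254). Kif11 had 544 and 661 CPM, Kif4 153 and 177, Cenpf 288 and 236, Cenpe 407 and 375, Ndc80 80.8 and 86.7, Ttk 76.8 and 95.7, Aurkb 189 and 242 and Incenp 231 and 252. All 8 lay above both of their Pax5-KO libraries. Cenpa had 112 and 103 CPM, Kif20b 179 and 177, Ncaph 154 and 199, Ube2c 295 and 377, Anln 159 and 132 and Ccnb2 134 and 169, the last between its Pax5-KO libraries. Against WT, Pax5-KO + Pax5 had 0 members called by edgeR (7.13% of tested genes in either direction), 4 with an unadjusted p under 0.05 (20.4%) and 3 called by DESeq2 (13.0% of its genes). The median was -0.04. These groups also differ in sex-linked RNA, as given above. The sums in this group were 6049 to 6879 CPM for early B, 112 to 147 for myeloid, 75.1 to 84.6 for T lineage and 107 to 118 for NK and innate lymphoid markers.

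Ebf1 added to Pax5-KO cells raised Mki67 too. In Pax5-KO + Ebf1 against Pax5-KO it stood at 2946 and 2735 CPM (0.81 ± 0.19, adjusted p = 0.0282). The 1 call is 2.70% of the 37, near the background, where 1.75% of tested genes were called higher and 3.60% in either direction. EdgeR called no other member, the median was 0.25 (-0.04 over all tested genes) and 31 of 37 were above 0 (52.1% of tested genes were below). With a length offset Mki67 was not called (0.40, adjusted p = 0.280), nor without Pax5-KO replicate 1 (0.0700) or 2 (0.233) or Pax5-KO + Ebf1 replicate 1 (0.0978). The replicates of this group were far apart. Aurkb had 126 and 198 CPM, Cenpa 116 and 59.9, Ndc80 85.9 and 40.6, Ccnb2 123 and 257 and Ube2c 175 and 346, so that the 2 libraries lay on either side of Pax5-KO in 4 of these 5 genes. Closer pairs were Kif11 at 545 and 609 CPM, Kif4 at 143 and 135, Cenpf at 207 and 262, Cenpe at 276 and 346, Incenp at 186 and 217, Ttk at 56.2 and 69.8, Kif20b at 115 and 125, Ncaph at 145 and 202 and Anln at 177 and 124. The sums in this group were 3112 to 3237 CPM for early B, 332 to 333 for myeloid, 157 to 182 for T lineage and 71.2 to 94.5 for NK and innate lymphoid markers.

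**Figure D3:**
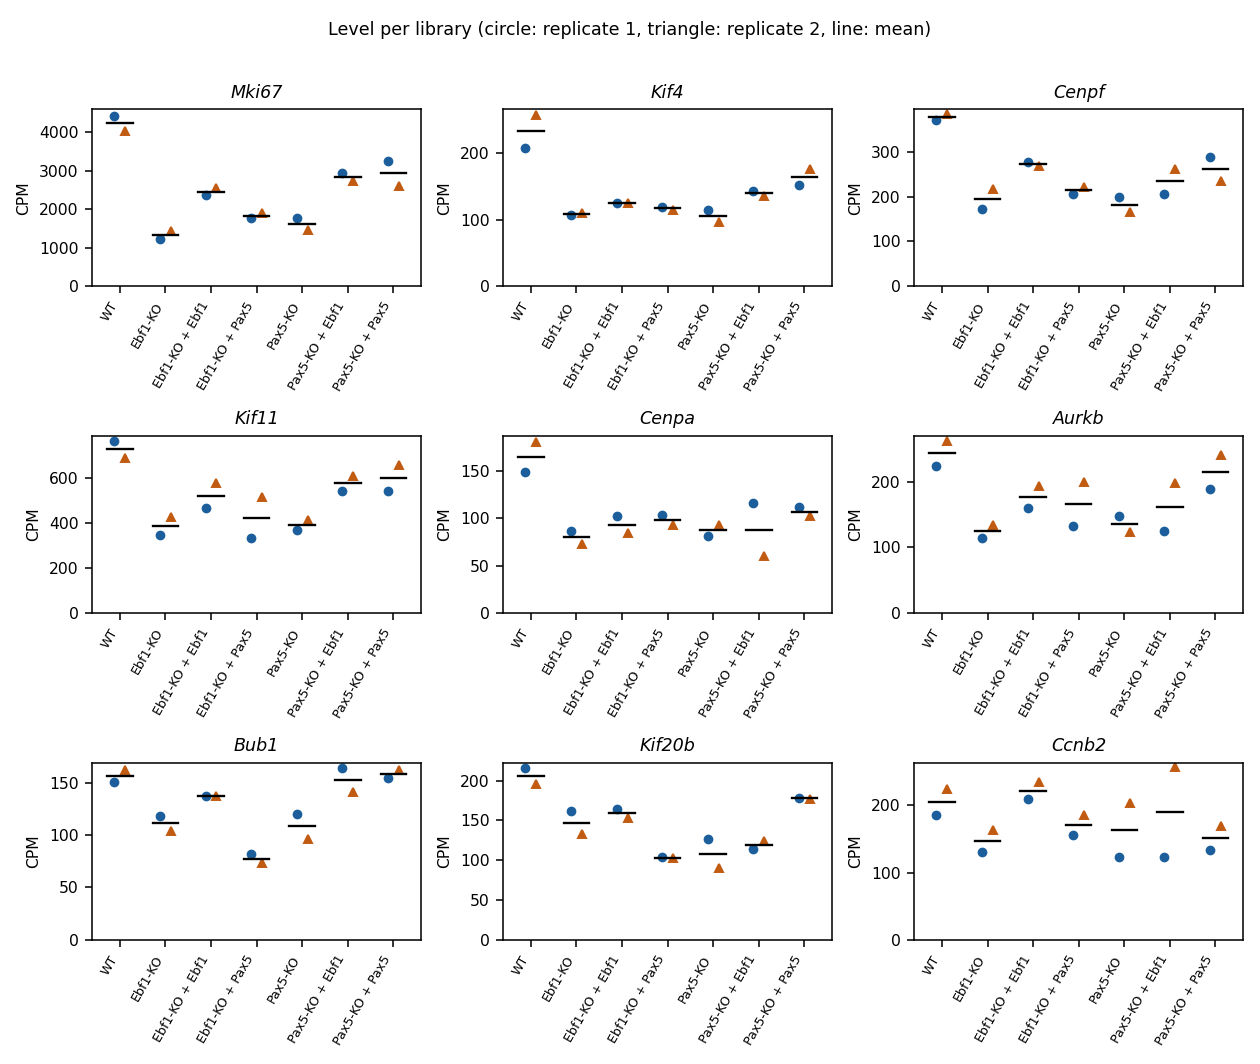
CPM of 9 members in each library (circle, replicate 1; triangle, replicate 2; line, mean of 2), by group, with axes from 0. The lower WT library of Mki67 (4022 CPM) lies above the highest library of any other group (3247), Bub1 is lowest in Ebf1-KO + Pax5, and the replicates of Ccnb2 in Pax5-KO + Ebf1 stand far apart (123 and 257 CPM).

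Whether a vector acted alike in the 2 knockouts was tested as a difference of effects. For Pax5, the effect in Ebf1-KO minus that in Pax5-KO was below 0 for 31 of 37 members (50.2% of tested genes), with a median of -0.40, and 2 were called lower (0.735% of tested genes): Bub1 (-1.07 ± 0.27, adjusted p = 0.0454) and Kif20b (-1.23 ± 0.29, adjusted p = 0.0303). Bub1 had an effect of -0.52 in Ebf1-KO and 0.55 in Pax5-KO, Kif20b -0.51 and 0.72. Neither held up to leaving libraries out: Bub1 was lost without any 1 of the 8 (adjusted p up to 0.203, without Ebf1-KO replicate 1) and Kif20b without any except Pax5-KO replicate 1 (up to 0.165, without Ebf1-KO replicate 1). RLE size factors also ended the call of Bub1 (adjusted p = 0.0538). Mki67 gave -0.40 (adjusted p = 0.529), with effects of 0.46 and 0.86. Both knockouts differ in sex-linked RNA as well, as given above. For Ebf1, the same difference gave 0 calls by edgeR (0.612% of tested genes in either direction), 2 members with an unadjusted p under 0.05 (8.38%) and 0 by DESeq2 (1.80% of its genes), with a median of 0.11; Mki67 had 0.07, from effects of 0.89 and 0.81, with an adjusted p of 0.989.

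**Figure D4:**
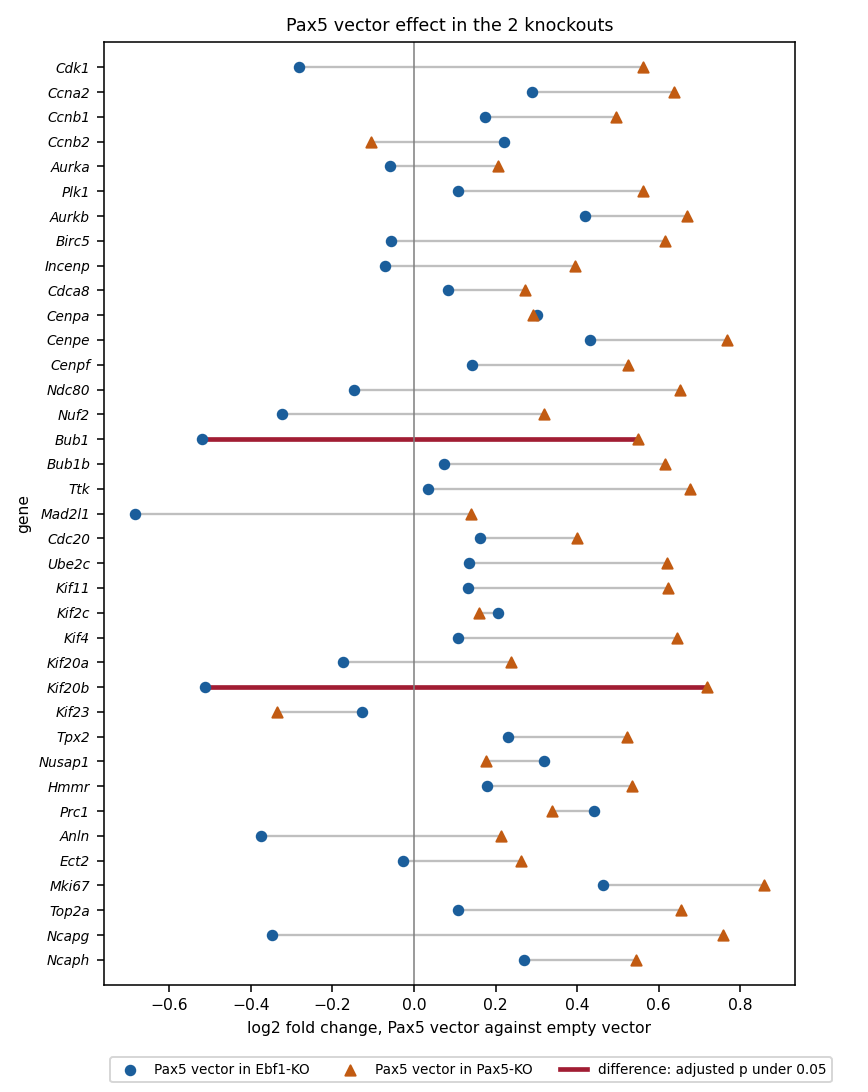
Log2 fold change of each member with the Pax5 vector against the empty vector in Ebf1-KO (circles) and in Pax5-KO (triangles), joined by a line that is thick and red where the difference had an adjusted p under 0.05. The triangles lie right of the circles for 31 of 37 genes, and Bub1 and Kif20b carry the 2 red lines.

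Myc, the gene the study is about, had another order of groups than Mki67. It stood at 299 and 248 CPM for WT, 143 and 187 for Ebf1-KO, 308 and 418 for Ebf1-KO + Ebf1 and 66.8 and 84.3 for Ebf1-KO + Pax5. In Pax5-KO it stood at 277 and 344 CPM, with Ebf1 at 307 and 445 and with Pax5 at 499 and 670. The Myc libraries of Pax5-KO overlapped with those of WT, where 10 members were lower. Ebf1-KO + Pax5 had the lowest Myc of the 7 groups, where no member was called against Ebf1-KO (Myc -1.13, adjusted p = 0.0209). That call was lost without Ebf1-KO replicate 2 or without Ebf1-KO + Pax5 replicate 1 or 2. Against WT, Myc had 1.09 in Pax5-KO + Pax5 (adjusted p = 0.0160), where the median member was at -0.04. In Ebf1-KO + Ebf1 against WT it had 0.41 (adjusted p = 0.367), where the median member was at -0.14. In the comparisons that follow, Myc moved the way most members did. It had -0.73 in Ebf1-KO against WT (adjusted p = 0.0681) and 1.14 with Ebf1 in Ebf1-KO (adjusted p = 0.0214). The call at 1.14 was also lost without some single libraries. In Pax5-KO it had 0.28 with Ebf1 (adjusted p = 0.570) and 0.91 with Pax5 (adjusted p = 0.0600). A link between Myc and the members was not tested.

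A wider list of 92 other mitosis genes, all tested, also had far more lower than higher calls in the knockouts. In Ebf1-KO 20 fell and 0 rose (median -0.54, with 6.65% of all tested genes called lower), among them Aspm, a spindle pole protein (-1.27 ± 0.18, adjusted p = 0.000161), Foxm1, the transcription factor of the G2/M programme (-1.18 ± 0.20, adjusted p = 0.000663), and Nek2, a centrosome kinase (-1.36 ± 0.25, adjusted p = 0.00131). In Pax5-KO 15 fell (median -0.56, with 5.00% of all tested genes called lower), with Aspm at -1.08 ± 0.18 (adjusted p = 0.000768) and Foxm1 at -1.11 ± 0.20 (adjusted p = 0.00131), and the kinetochore gene Zwint rose (1.35 ± 0.36, adjusted p = 0.0195; lost without WT replicate 1, 0.0632, or 2, 0.173, or Pax5-KO replicate 2, 0.231). Returning Ebf1 to Ebf1-KO raised 2 of the 92 (2.17%, beside 2.21% of all tested genes called higher), which is near the background. They were Gtse1 (1.90, adjusted p = 0.00228) and Cenpn (1.18, adjusted p = 0.0337). Pax5 in Ebf1-KO changed 0 (4.08% of tested genes in either direction). There DESeq2 called 1 (9.29% of its genes), and 7 had an unadjusted p under 0.05 (16.7% of tested genes). Gtse1 was lost without Ebf1-KO replicate 1 (0.0590) and Cenpn without any 1 library (up to 0.457). In Pax5-KO cells Ebf1 raised 7 of the 92 (7.61%, beside 1.75% of tested genes called higher). Pax5 raised 1 of the 92 (1.09%, beside 1.64%), which is near the background. It was Mybl2, which encodes B-Myb (1.49, adjusted p = 0.00203). Mybl2 was also among the 7 raised by Ebf1 (1.66, adjusted p = 0.00164). Genes of the preceding phases were read as well: of 49 DNA replication and G1/S genes, 5 fell in Ebf1-KO (10.2%, beside 6.65% of all tested genes, median -0.18) and 3 in Pax5-KO (6.12%, beside 5.00%, median 0.02), which is near the background. Between the 2 vectors in Ebf1-KO, 12 of the 49 were higher with Ebf1 (24.5%, median 0.77), beside 1 of the 37 mitosis members (2.70%), 6 of the 92 other mitosis genes (6.52%) and 4.74% of all tested genes; the lists were not tested against each other.

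The members also differed between replicates of 1 group, by a median that was mostly larger than that of all genes. The median log2 ratio of replicate 2 to replicate 1 over the 37 was -0.18 in WT, where 29 were lower in replicate 2, and 0.13 to 0.28 in the other 6 groups, where 25 to 30 were higher in replicate 2; over all tested genes it was -0.04 to 0.06. WT was the group that went the other way. In Pax5-KO + Ebf1 the ratio ran from -1.07 (Ndc80) to 1.74 (Plk1, the polo kinase, at 65.6 and 220 CPM).

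**Figure D5:**
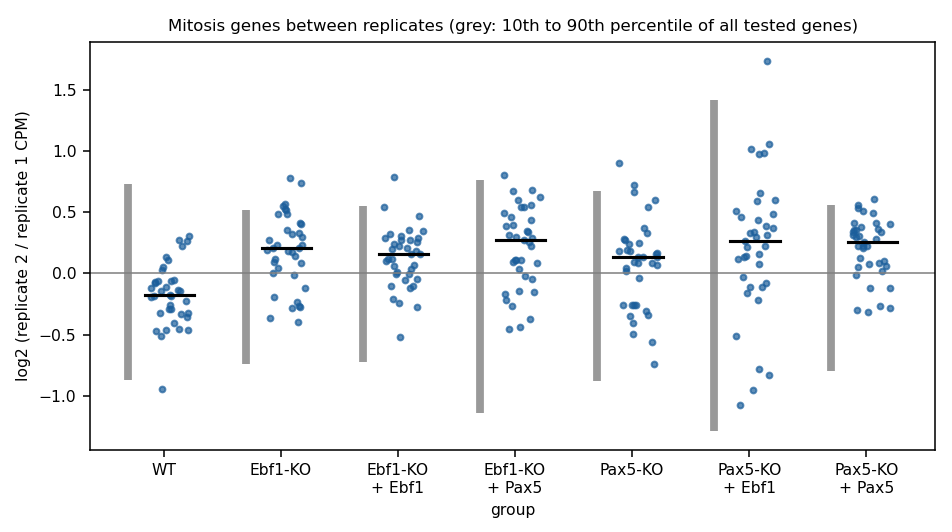
Log2 ratio of CPM in replicate 2 to replicate 1 for the 37 members (points) and their median (black line) in each group, beside the 10th to 90th percentile of all tested genes (grey bar). The median is below 0 in WT (-0.18) and above 0 in the other 6 groups, and the spread is widest in Pax5-KO + Ebf1.

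EBF1 binding, measured by chromatin immunoprecipitation in the pre-B line 230-238 and given as 1 peak list over the replicates, was compared with the members' starts. A peak centre lay within 1 kb of the start of 8 of the 37 (21.6%, against 27.4% of tested genes) and within 20 kb of 17 (45.9%, against 56.8%). Of the peaks above the median fold over control, 1 lay within 1 kb of 4 members (10.8%, against 8.52%) and within 20 kb of 10 (27.0%, against 31.3%). The 8 were Aurkb, Birc5, Incenp, Cdc20, Kif20a, Kif23, Nusap1 and Ncapg. The peak at Aurkb (chr11:69045669-69045989, mm10) lay inside the gene, 192 bases after its start, with the authors' fold over control of 33.3, where the median of the list was 12.3. Mki67, Kif4, Kif11, Cenpe, Cenpf and Ndc80 had no peak within 20 kb. Bub1 had 1 upstream, at -13882 bases from its start (chr2:127845581-127845901), with a fold of 81.8. Binding was not measured in the cells whose RNA was counted.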

How the data were processed

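The labels and file headers were used to assign libraries; in the Pax5-KO group 1 column has no number and stands for replicate 1, as its partner is numbered 2 and its run tag is that of each replicate 1 column. What the tag marks is not stated. The RNA values are whole-number exon counts per gene, made by the authors with HOMER on mm10 without normalization, per the file headers; the strand setting is not given in the sources used here, so members that overlap other genes (Ccna2, Cdc20, Kif20a, Nusap1, Ncapg, Kif20b, Tpx2) can share reads. The submitters' processing notes name STAR 2.6.0b-1 and HOMER 4.8 among their tools. The EBF1 peak list deposited by the authors gives, per the file headers, a normalized tag count, a signal, for each peak, and the authors' fold over control, a ratio; they were used only to describe peaks within that list. The virtual 4C files were not used.

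The counts went into edgeR 4.0.16 under R 4.3.3 (TMM, filterByExpr, 7 residual degrees of freedom, 14550 genes); DESeq2 1.42.0, RLE scaling, no filter, a replicate block, a length offset and leaving out each library were alternatives. The code was tested on simulated data. Motifs were searched in RefSeq promoters, where Aurkb, Ccna2, Incenp, Kif20a and Tpx2 had no entry. The RefSeq start of Kif11 (37376382) and that of the count table (37376403) differ. Library values are given for members called in any of the 6 comparisons with an empty-vector group and, in role classes with none, for the member with the highest CPM per kb in WT; other genes named with values, such as Bub1, were picked after their values were seen. The members and lists were chosen with earlier results of these data known. Columns of per-sample values not used numbered 0.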

Additional observations from a re-analysis of the deposited data

Results flagged for a closer look

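By a test of the difference itself, the Pax5 vector's effect was called different between the 2 knockouts for 2 members. Both were called lower, as were 0.735% of tested genes. Neither call held up to leaving libraries out, and RLE size factors ended that of Bub1, as given above. The 2 knockouts also differ in sex-linked RNA. Bub1 had -1.07 on the log2 scale (effect in Ebf1-KO minus effect in Pax5-KO, edgeR adjusted p = 0.0454), and Kif20b had -1.23 (edgeR adjusted p = 0.0303). With 2 libraries a group, no group was large enough for the check for a library far from the others.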

How the results depend on the processing

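The counts of members called moved as follows. DESeq2 called 14 in Ebf1-KO, 16 in Pax5-KO, 2 in Pax5-KO + Ebf1 against Pax5-KO, 4 in Pax5-KO + Pax5 against Pax5-KO, 2 between the vectors in Ebf1-KO and 3 in Pax5-KO + Pax5 against WT, and Ebf1-KO + Ebf1 against WT stayed within 1.5 times. Without a filter on low counts, Pax5-KO + Pax5 against Pax5-KO gave 2 and the difference of Pax5 effects 1, as did RLE size factors for the latter. A length offset gave 0 in Pax5-KO + Ebf1 against Pax5-KO and 2 between the vectors. Leaving out 1 library gave 2 to 6 in Ebf1-KO, 3 to 6 in Pax5-KO, 0 in Ebf1-KO + Ebf1 and 0 to 1 in Pax5-KO + Ebf1 against their empty vectors, 0 to 2 in Pax5-KO + Pax5, 0 to 1 between the vectors, in Ebf1-KO + Ebf1 against WT and in the difference of Pax5 effects, and 0 in the other 3 comparisons; a group left with 1 library is assumed to vary like the others. Except for most DESeq2 comparisons, the share of all tested genes called by these fits is not given here. The same holds for the fits with the replicate block below. A shift in the members alone thus cannot be told from one over all genes. The cause of these shifts was not tested.

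Same-numbered libraries share a number and a run tag whose meaning is not stated. Their deviations from the group means correlated at -0.0586 to 0.0126 between WT and the other groups and at 0.0764 to 0.236 among the others, where 13 of 15 pairs of groups were over 0.1. Not every pair was, so the numbers were not taken as pairs. With the replicate block, 4 members were called in Pax5-KO + Pax5 against Pax5-KO, 2 between the vectors and 1 in Pax5-KO + Pax5 against WT. With the length offset and the replicate block, the counts were 14 in Ebf1-KO, 2 in Ebf1-KO + Pax5 and 0 in Pax5-KO + Ebf1 against their empty vectors, 4 in Pax5-KO + Pax5 and 3 between the vectors.

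Not every member was followed in every comparison when 1 library was left out. Of the values followed that had no call, 3 changed sign. Ccnb2 in Pax5-KO against WT ran from -0.738 to 0.00138, and Myc in Pax5-KO + Ebf1 against Pax5-KO from -0.0152 to 0.501. The difference of Ebf1 effects for Mki67 ran from -0.0532 to 0.196, below 0 without Pax5-KO replicate 1 or Ebf1-KO replicate 1. At 2 libraries a group, a change that was not called is not shown to be absent.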
